A study of Mus musculus with 7 samples.

Results

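Car4 and Car10 are 2 carbonic anhydrase genes among the 297 genes counted in situ in 384076 segmented cells of the mouse brain. They were picked by name because earlier results of these data had shown a contrast between them over cell types, so their levels over cell types, and of one gene in cells split by the other, are given as a description, without a test. Cells were taken as glutamatergic with at least 5 transcripts of Slc17a6 (the vesicular transporter VGLUT2) or of Slc17a7 (VGLUT1), as GABAergic with at least 5 transcripts of Gad1 and Gad2 together, and as endothelial with at least 3 of Cldn5, a tight-junction gene. Glial, mural and fibroblast cells needed at least 5 transcripts of a short marker list. The data are 7 fresh-frozen 10 µm coronal hemisections of wild-type (WT) mouse brain through the anterior thalamus, read with Xenium, which decodes single RNA molecules of a fixed panel in place. They comprise 2 anterior sections (bregma -0.58 mm), 2 intermediate ones (-0.70 to -0.82 mm) and 3 posterior ones (-0.94 mm). No treatment or mutation separated the groups, and the labels name no age, sex, strain or animal. Errors and p-values therefore measure the spread between sections, which may be technical.

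Carbonic anhydrases interconvert carbon dioxide and bicarbonate and so set how fast the fluid around a cell is buffered. Car4 encodes a form tethered by a lipid anchor to the outer face of the plasma membrane, and in the brain it is known from the capillary lumen and from some neurons. Car10 encodes a related secreted protein that has lost the catalytic site and binds neurexins, the presynaptic adhesion proteins, so despite the shared family name the proteins do different work.

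Car4 made up 0.326% of all transcripts (97th of the 297 genes by total) and Car10 made up 0.778% (28th). Sections held 50169 to 60720 cells with a median of 278 to 390 transcripts per cell, and all control probes, which match no gene, gave 0.656 counts per cell together. Only 8 barcode strings occurred in more than 1 section. A segmented outline often held transcripts of neighbours: 63.2% of cells met more than 1 cell-type rule and 5.76% met none. Levels below come from cells that met exactly 1 rule, which were 4601 of the 43785 cells that met the VGLUT2 rule (10.5%), 35293 VGLUT1 cells, 28525 GAD cells, 5948 endothelial cells and 788 mural cells (the muscle and pericyte layer of vessels). The remaining classes held 21781 oligodendrocytes, 15232 astrocytes, 3248 fibroblasts, 3023 microglia and 812 oligodendrocyte precursors (OPC). The 16 endothelial genes, which include Cldn5, summed to 44.0 transcripts per endothelial cell. They summed to 10.4 in fibroblasts and 10.2 in mural cells, and to 1.44 in VGLUT2, 1.46 in VGLUT1 and 1.84 in GAD cells. Cldn5 chose the endothelial cells and was kept under 3 in the other classes, so part of this gap was set by the rules. Values are mean transcripts per cell in each section, then mean ± SD over the 7 sections, and a level of one gene cannot be set against that of the other, since each has its own probes.

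Car4 was highest in the blood vessel wall. Endothelial cells held 3.32 ± 0.356 Car4 transcripts (SD, n = 7), with a lowest section of 2.84, a median of 3.51 and a highest of 3.67. Mural cells followed at 2.61 ± 0.42, from 2.01 through 2.60 to 3.14. These ranges overlapped, and endothelium was the higher in 5 of 7 sections. Both glutamatergic classes came next, with 1.58 ± 0.187 in VGLUT1 cells (1.35 to 1.92) and 1.52 ± 0.357 in VGLUT2 cells (0.919 to 1.87), and their ranges also overlapped. All other classes lay below every section of these 4: microglia had 0.447, fibroblasts 0.427, astrocytes 0.334, GAD cells 0.292 ± 0.0301 (0.247 to 0.316), OPC 0.277 and oligodendrocytes 0.129 ± 0.0162. Each neighbouring pair among these 6 overlapped. Endothelium stood 2.24-fold above VGLUT2 cells (log2 ratio 1.16), and VGLUT2 cells 5.08-fold above GAD cells (log2 ratio 2.35). Between sections VGLUT2 cells ranged from 0.919 in anterior section 2 to 1.87 in anterior section 1.

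Car10 followed another order. It was highest in VGLUT1 cells at 6.08 ± 0.58 (lowest section 5.47, median 5.81, highest 6.94), then in VGLUT2 cells at 4.05 ± 0.649 (3.30, 3.83 and 5.09) and in GAD cells at 1.08 ± 0.119 (0.941, 1.07 and 1.30). None of these 3 ranges overlapped. From GAD cells down, each class overlapped its neighbour: OPC had 0.869, astrocytes 0.671, endothelium 0.611 ± 0.0382, microglia 0.597, fibroblasts 0.509, mural cells 0.408 and oligodendrocytes 0.256. VGLUT1 cells held 1.51 times the Car10 of VGLUT2 cells, and VGLUT2 cells 3.74 times that of GAD cells. Car10 was 6.57-fold higher in VGLUT2 cells than in endothelium, the reverse of the order seen for Car4. These gaps rested on the exclusive classes in part: over every cell that met a rule, whatever else it met, Car10 was 5.81 ± 0.290 (SD, n = 7) in VGLUT1 and 5.79 ± 0.362 in VGLUT2 cells, and 2.81 ± 0.213 in GAD cells against 2.80 ± 0.265 in glia. Car4 over every such cell was 3.72 ± 0.182 in endothelium, 2.13 ± 0.464 in VGLUT2, 1.93 ± 0.127 in VGLUT1, 1.01 ± 0.0931 in GAD cells and 1.21 ± 0.106 in glia.

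**Figure D1:**
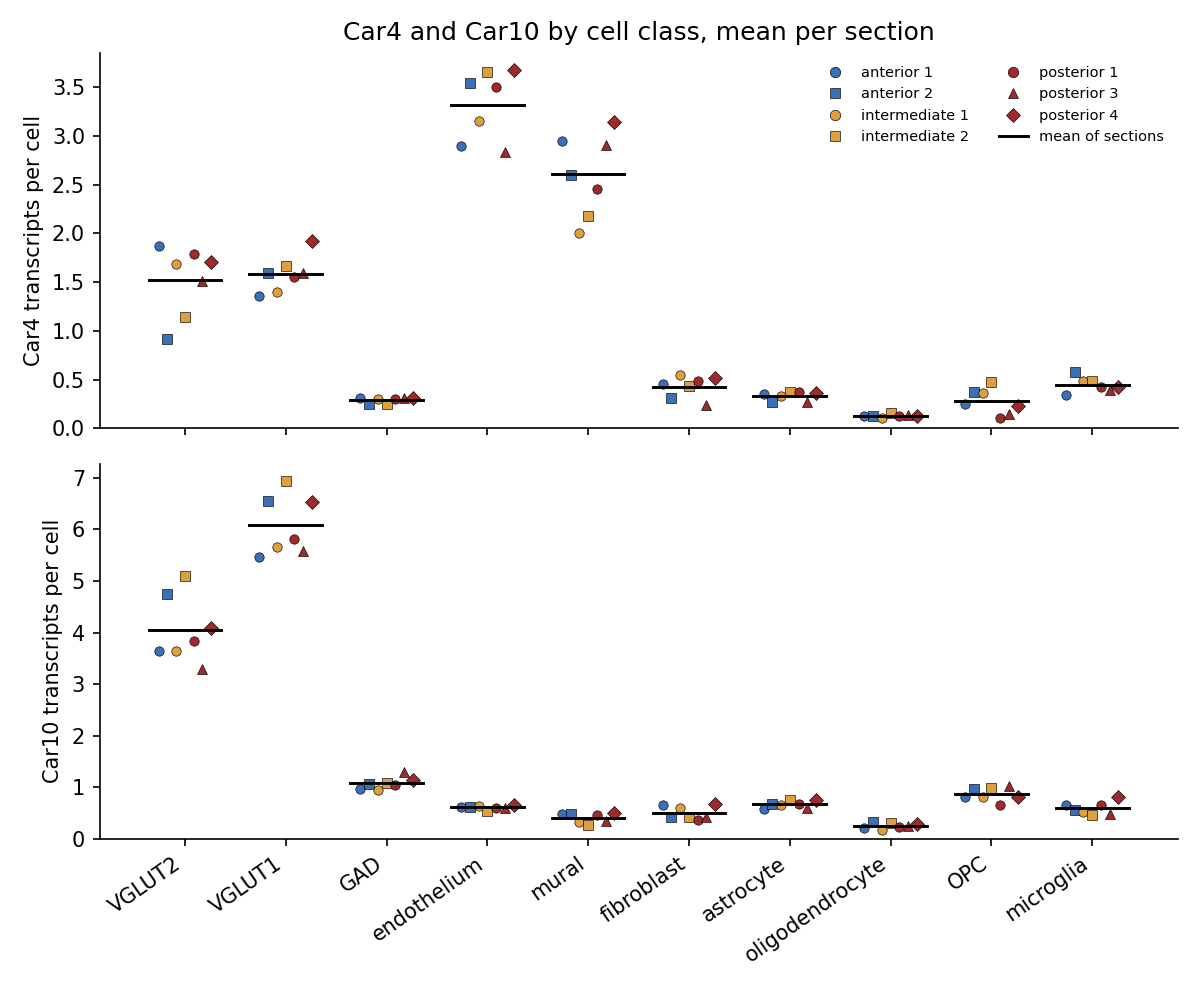
Mean Car4 (top) and Car10 (bottom) transcripts per cell in 10 cell classes; each point is 1 of the 7 sections, coloured by position and shaped by replicate number, and the bar is their mean. Car4 is highest in endothelium (3.32) and mural cells (2.61), Car10 in VGLUT1 (6.08) and VGLUT2 cells (4.05).

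These levels varied with cell depth and with transcripts of other cell types in the same outline. Endothelial and mural cells held few transcripts in all (medians of 153 and 121, against 372 in VGLUT2 and 417 in VGLUT1 cells), so per 1000 panel transcripts the vascular lead in Car4 was wider: 19.9 in endothelium and 15.4 in mural cells, against 3.84 in VGLUT2, 3.76 in VGLUT1 and 1.07 in GAD cells. On that scale Car10 was 13.7 in VGLUT1, 10.6 in VGLUT2, 3.27 in GAD and 3.69 in endothelial cells, so GAD cells no longer stood above endothelium. Low Car10 outside neurons went with neuronal transcripts in the same outline. Endothelial cells without Slc17a6, Slc17a7, Gad1 or Gad2 had 0.188 Car10 transcripts and the others 0.741. The same split gave 0.242 and 0.821 in astrocytes, and 0.114 and 0.379 in oligodendrocytes. Car4 counts were also lower in vessel cells without neuronal transcripts, which were shallower. Mural cells without these 4 genes had 1.11 ± 0.228 Car4 transcripts (310 cells, median depth 87) and the others 3.57 (depth 143). Per cell the neuron-free ones lay below the VGLUT1 and VGLUT2 means, but those neurons were far deeper (medians of 417 and 372). Endothelial cells without them had 2.47 ± 0.127 (1376 cells, depth 104) and the others 3.57 (depth 169). Low Car4 in GAD cells went with endothelial transcripts in the same way, at 0.245 in cells without Cldn5 and 0.776 in those with it. These splits are counts per cell, not scaled for depth. The part of depth or of stray transcripts in them was not tested further. The split by Cldn5 had the same direction in glutamatergic cells. VGLUT2 cells had 1.42 ± 0.343 Car4 transcripts without Cldn5 and 2.58 with it, and 1.20 in the 2339 cells with none of the 16 endothelial genes. VGLUT1 cells had 1.52 without Cldn5 and 2.16 with it.

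Levels changed in small steps across the class thresholds, with no break at the threshold itself. Cells with 3 or 4 Slc17a6 transcripts had 0.911 and 0.775 of Car4, and those with 5 or 6 had 0.712 and 0.575. Cells with 1 or 2 Cldn5 transcripts had 1.10 and 1.44 of Car4, and those with 3 or 4 had 1.84 and 2.07. Car10 was 1.71 and 2.06 at 3 or 4 Slc17a7 transcripts and 2.47 and 3.002 at 5 or 6.

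The share of cells with a transcript was counted for each gene over the classes. The shares of one gene cannot be set against those of the other, since each has its own probes. At least 1 Car4 transcript was present in 31.3% of VGLUT2 cells, at least 5 in 12.5% and at least 10 in 5.16%. Car10 was present in 83.6% of VGLUT2 cells. VGLUT1 cells had Car4 in 52.1% and Car10 in 92.7%, and GAD cells in 15.0% and 40.7%. Endothelial cells had Car4 in 74.7%. For a cell type that should lack both, oligodendrocytes (median depth 128) had Car4 in 8.82% and Car10 in 17.7%. Thinned to 100 transcripts per cell, which left out 23.0% of endothelial, 38.2% of mural and 1.35% of VGLUT2 cells, the Car4 shares were 70.5% in endothelium, 26.0% in VGLUT1, 19.2% in VGLUT2, 6.84% in GAD cells and 7.24% in oligodendrocytes. The GAD share of Car4 was thus no higher than in oligodendrocytes at equal depth. Thinning left out the shallowest cells of both, 29.8% of oligodendrocytes and 4.54% of GAD cells. Thinned Car10 shares were 70.1% in VGLUT1, 57.6% in VGLUT2, 21.6% in GAD cells and 14.4% in oligodendrocytes. The other classes were not below GAD cells: OPC had 42.5%, fibroblasts 28.2%, microglia 26.5%, endothelium 25.9%, astrocytes 24.9% and mural cells 21.8%. Car10 in GAD cells thus did not stand above non-neuronal classes at equal depth, except oligodendrocytes. Both genes were found together in 23.6% of VGLUT2 cells, Car4 without Car10 in 6.28%, Car10 without Car4 in 60.9% and neither in 9.17%. VGLUT1 cells had both in 49.4%.

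Within each neuron class, a cell with at least 5 transcripts of exactly 1 of a set of subtype markers was placed in that marker's subclass. Cells with several such markers were set aside: 2083 of 4601 VGLUT2, 13224 of 35293 VGLUT1 and 15123 of 28525 GAD cells. Among the VGLUT2 subclasses measured in at least 5 sections, Car4 was highest where none of the 9 markers reached 5 transcripts. It was 3.89 ± 0.393 in these 1133 cells (3.32 to 4.54). It was 1.52 ± 0.692 in cells with Calb1 (calbindin; 6 sections), 0.695 ± 0.192 with Necab1, another calcium-binding protein (5 sections), 0.473 ± 0.801 with the serotonin receptor gene Htr2c (0.174 ± 0.138 over 6 sections without intermediate section 2), and 0.179 ± 0.105 with Calb2 (calretinin; 734 cells). The step from the unmarked to the Calb2 subclass was 25.1-fold. Car10 ran the other way over the same ends, 4.42 ± 0.815 in Calb2 cells (3.35 to 5.65) and 2.52 ± 0.466 in unmarked cells (1.74 to 3.26). These ranges did not overlap, while the Necab1 and Htr2c subclasses between them overlapped both. Rarer subclasses were seen in few sections: 48 cells with Pvalb (parvalbumin) had 5.24 Car4 transcripts in 2 posterior sections, and 49 cells with Myo5c, a myosin, had 11 in posterior section 4. C1ql2, Tacr1 and Ramp3 subclasses had too few cells in each section for a level.

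VGLUT1 neurons split by cortical layer markers. Car4 was 2.78 ± 0.698 in cells with Wfs1, 2.13 ± 0.265 with Rorb (a layer 4 nuclear receptor) and 2.03 ± 0.236 with Cux2 (an upper-layer transcription factor), with overlapping ranges. It was 0.909 in Prox1 cells, which were measured in the 3 posterior sections, 0.681 with Neurod6, 0.659 with Fezf2 and 0.347 with Cplx3, both deep-layer markers. It fell to 0.0916 ± 0.0254 with Foxp2, a marker of layer 6 (0.0612 to 0.131), apart from all others and 22.8-fold under Cux2 cells. Car10 did not share this drop. It was 8.34 ± 0.573 with Cux2, 6.41 with Wfs1, 6.23 with Neurod6, 5.47 ± 0.417 with Foxp2, 4.36 with Rorb, 3.35 with Fezf2, 1.45 ± 0.47 with Cplx3 and 0.762 ± 0.073 with Prox1. Foxp2 cells thus held little Car4 beside ample Car10, and Prox1 cells had the lowest Car10 of the VGLUT1 class.

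Among GABAergic neurons mean Car4 was highest in those with Lamp5, a membrane protein of neurogliaform cells, at 2.47 ± 0.919 (1.32 to 3.72). Vip cells, which make a vasoactive peptide, had 0.948 ± 0.276 over 6 sections, and their range overlapped that of Lamp5 cells. Cells with Pvalb had 0.392, those with Sst (somatostatin) 0.230 and those with Meis2 (a homeobox gene of striatal and other projection neurons) 0.203 ± 0.0104. Lamp5 cells held 5.99 times the Car4 of Pvalb cells, and the ranges of these did not overlap. That ratio was 1.71 when cells were taken whatever other subclass marker they held, and 11.7 with the doubled marker threshold. Car10 by subclass was 2.75 ± 0.295 with the peptide gene Nts, 2.42 with Sst, 2.17 with Lamp5, 2.07 with Penk, 1.99 with Pdyn, 1.90 with Vip, 1.77 with Pvalb and 1.10 ± 0.239 with Meis2, where each neighbour in the order overlapped the next. Meis2 cells were the largest marked subclass (4828 cells) and the lowest in Car10.

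**Figure D2:**
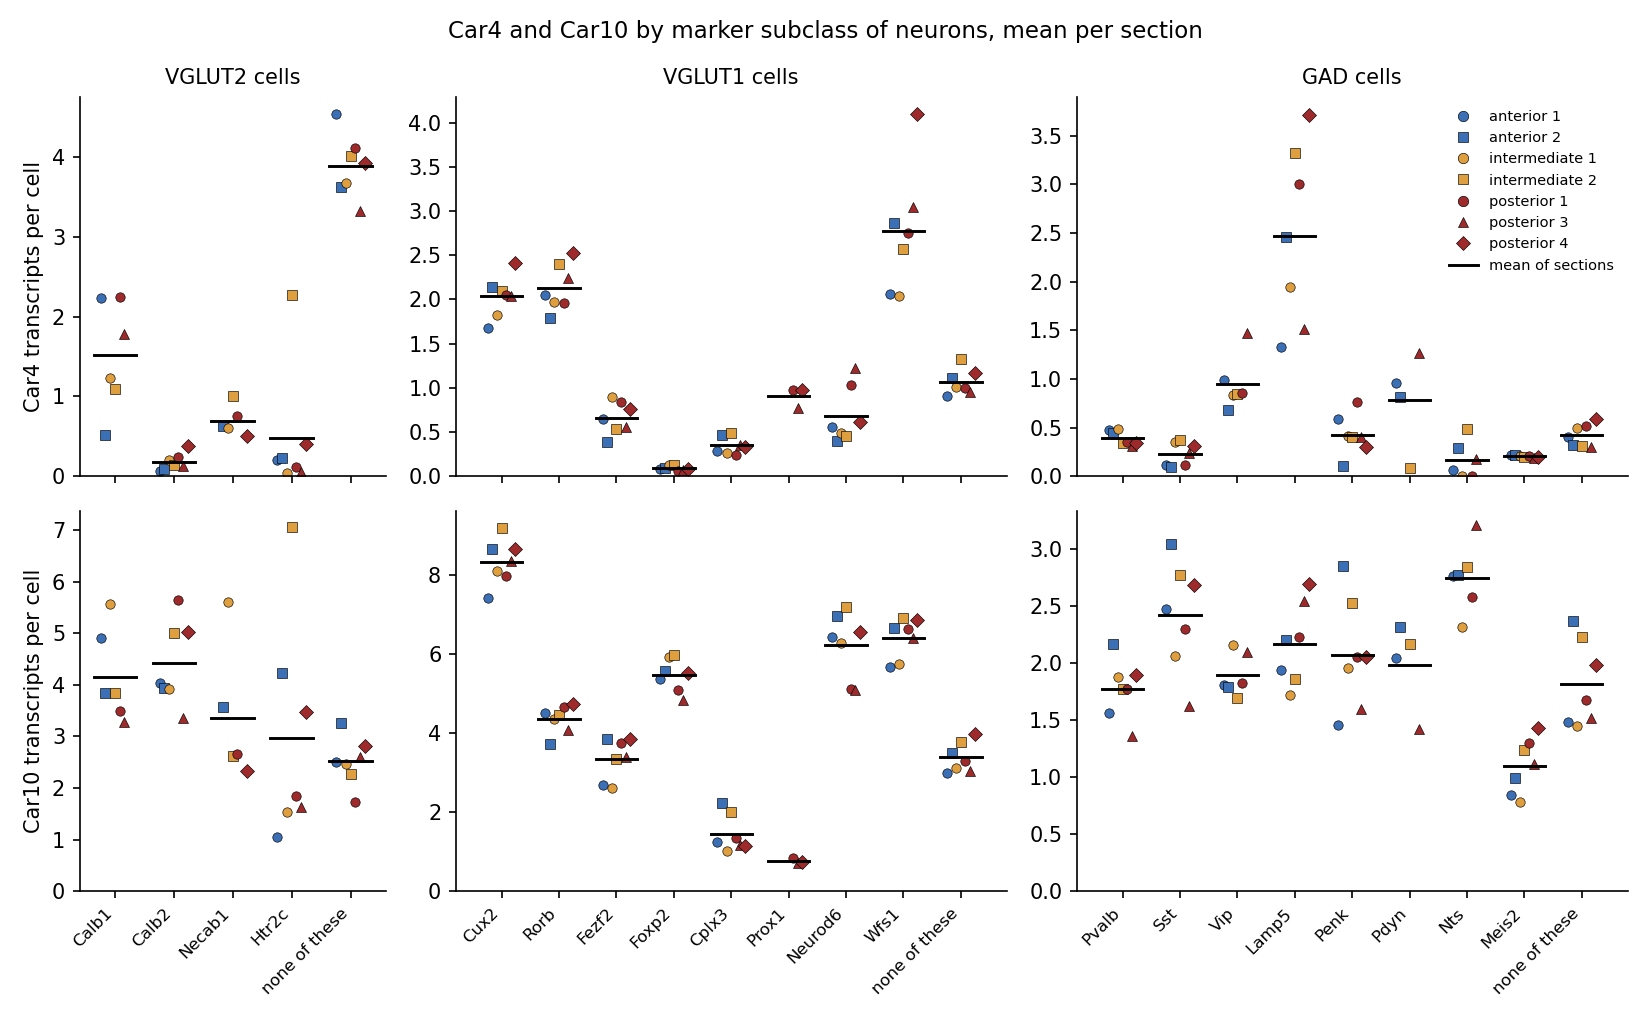
Mean Car4 (top) and Car10 (bottom) transcripts per cell by marker subclass of VGLUT2, VGLUT1 and GAD cells, for subclasses measured in at least 3 sections; points are sections and bars their means. Car4 peaks in unmarked VGLUT2 cells (3.89), Wfs1 cells (2.78) and Lamp5 cells (2.47), while Foxp2 cells have little Car4 (0.0916) with Car10 at 5.47.

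The genes ran against each other in VGLUT2 neurons. Car10 per 1000 transcripts was 11.6 ± 0.754 in VGLUT2 cells without Car4, 9.89 with 1 to 4 Car4 transcripts, 7.09 with 5 to 9 and 5.40 ± 2.40 with 10 or more. The first and last strata did not overlap (10.7 to 12.7 against 1.75 to 7.96). Read from the other gene, Car4 was 6.19 per 1000 in cells without Car10 and 1.10 with 10 or more Car10 transcripts. VGLUT1 neurons lacked this slope: Car10 was 12.2 per 1000 without Car4, 14.9 with 1 to 4, 15.7 with 5 to 9 and 13.3 with 10 or more. Across single cells the mean correlation of the genes within a section was -0.20 in VGLUT2 cells (4601 cells) and 0.15 in VGLUT1 cells, on log values of sparse counts from shared libraries.

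**Figure D3:**
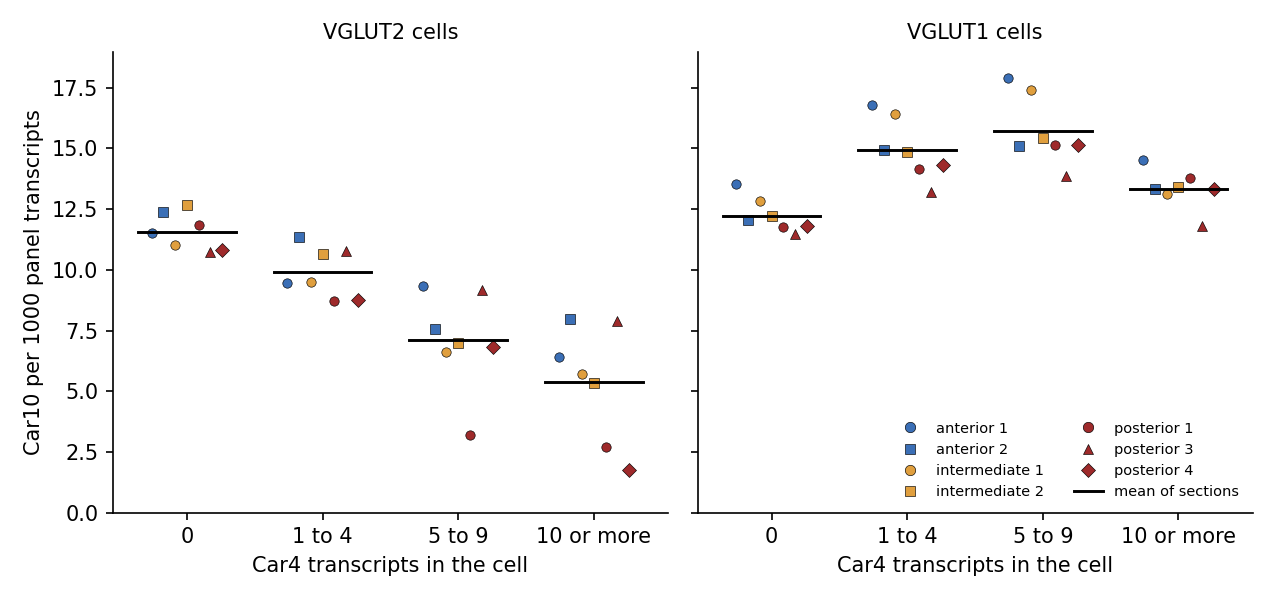
Car10 per 1000 panel transcripts in VGLUT2 (left) and VGLUT1 cells (right), grouped by the number of Car4 transcripts in the cell; points are sections and bars their means. In VGLUT2 cells the means step down from 11.6 to 5.40, and in VGLUT1 cells they lie between 12.2 and 15.7.

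To see which other genes Car4 marks in VGLUT2 neurons, cells with at least 5 Car4 transcripts (531 cells, 62 to 102 per section) were compared with cells at 0 (3224 cells). Counts were summed per section and tested with edgeR's quasi-likelihood test with the section as a block and Benjamini-Hochberg adjustment at 0.05, over all genes tested. Car4-rich cells carried Myo5c at 1.81 transcripts per cell (1.47 to 2.16 over sections) against 0.151 (0.0987 to 0.210), a log2 difference of 3.73 ± 0.146 (SE, edgeR adjusted p = 1.62e-08). Gjc1, which encodes the gap-junction protein connexin 45, was 2.56 against 0.338 (log2 difference 3.09 ± 0.161, adjusted p = 3.95e-08 by edgeR). The ephrin receptor gene Epha8 was 3.03 against 0.416 and the transcription factor gene Sox5 was 3.89 against 0.614. For these 4 genes the ranges of the groups did not overlap. Ppfibp1 (a liprin), Ccdc141, Cwh43 and Rab37 (a small GTPase) completed the 8 largest rises, at log2 differences of 2.84, 2.76, 3.25 and 2.84. In absolute terms the homeobox gene Prox1 rose most among the thalamic markers, from 4.18 to 19.8 transcripts (log2 difference 2.43), with Rorb at 9.90 against 2.31 and the guidance receptor Nrp2 at 3.38 against 1.45.

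Calb2 led the genes lower in Car4-rich VGLUT2 cells. It was 0.905 against 11.5 transcripts (log2 difference -3.72 ± 0.325, edgeR adjusted p = 1.74e-06). Rab3b, a GTPase of synaptic vesicles, was 0.0718 against 1.80, the adhesion gene Mdga1 was 0.0571 against 1.14, and the axon repellents Slit2 and Sema3a were 0.0896 against 1.23 and 0.0703 against 0.835. The transcription factor gene Ebf3 was 0.0378 against 0.986 and the peptide gene Crh 0.0134 against 0.281. Near 0 in Car4-rich cells were the substance P receptor gene Tacr1 (0.0056 against 0.383), the neuropeptide Y receptor gene Npy2r (0.00375 against 0.156) and Ndst4, a heparan sulfate enzyme (0.0183 against 0.601). Car10 itself was lower, 2.80 ± 0.81 against 4.27 ± 0.743, in 6 of 7 sections, a log2 difference of -0.52 ± 0.17 (SE) given without a test. Over 8 other settings this difference ran from -0.96 to -0.31. It was -0.31 without the section block, and -0.45 when glial rules were ignored in the class rule, a setting added after the data were seen.

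In all, 101 of 281 genes were higher (35.9%) and 114 lower (40.6%), 76.5% of the genes tested, so gene lists are read against a high background. Scaling by total counts in place of TMM (edgeR's trimmed-mean scaling) moved the median of all genes by -0.44 and the share of higher genes among the calls from 47.0% to 34.98%. Of 6 measured neurexin ligands and partners, the cerebellin gene Cbln1 (8.84 against 3.05) and the contactin gene Cntn6 (6.96 against 2.84) were higher, and Cntnap4, Cbln4 and Nxph3 lower. Of 23 thalamic marker genes 7 were higher and 12 lower, and of 14 matrix and guidance genes 5 were higher and 7 lower. Car4-rich cells also held more endothelial transcripts: 14 of 16 endothelial genes were higher (median log2 difference 1.41, against -0.16 over all genes), and the list summed to 2.40 per cell against 1.08. Median depth was 450 against 354. With all Cldn5-holding cells left out, 207 genes were called and 203 of them matched the 215 in direction. Among cells of 200 to 800 transcripts 204 of 206 did. Leaving out Cldn5 does not remove other endothelial transcripts: 4178 VGLUT2 cells lacked Cldn5, and 2339 lacked all 16 endothelial genes. The part of neighbouring vessels in these calls was not tested. The acid-base list, with 12 genes such as Car2 and the bicarbonate transporters, had no measured member.

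**Figure D4:**
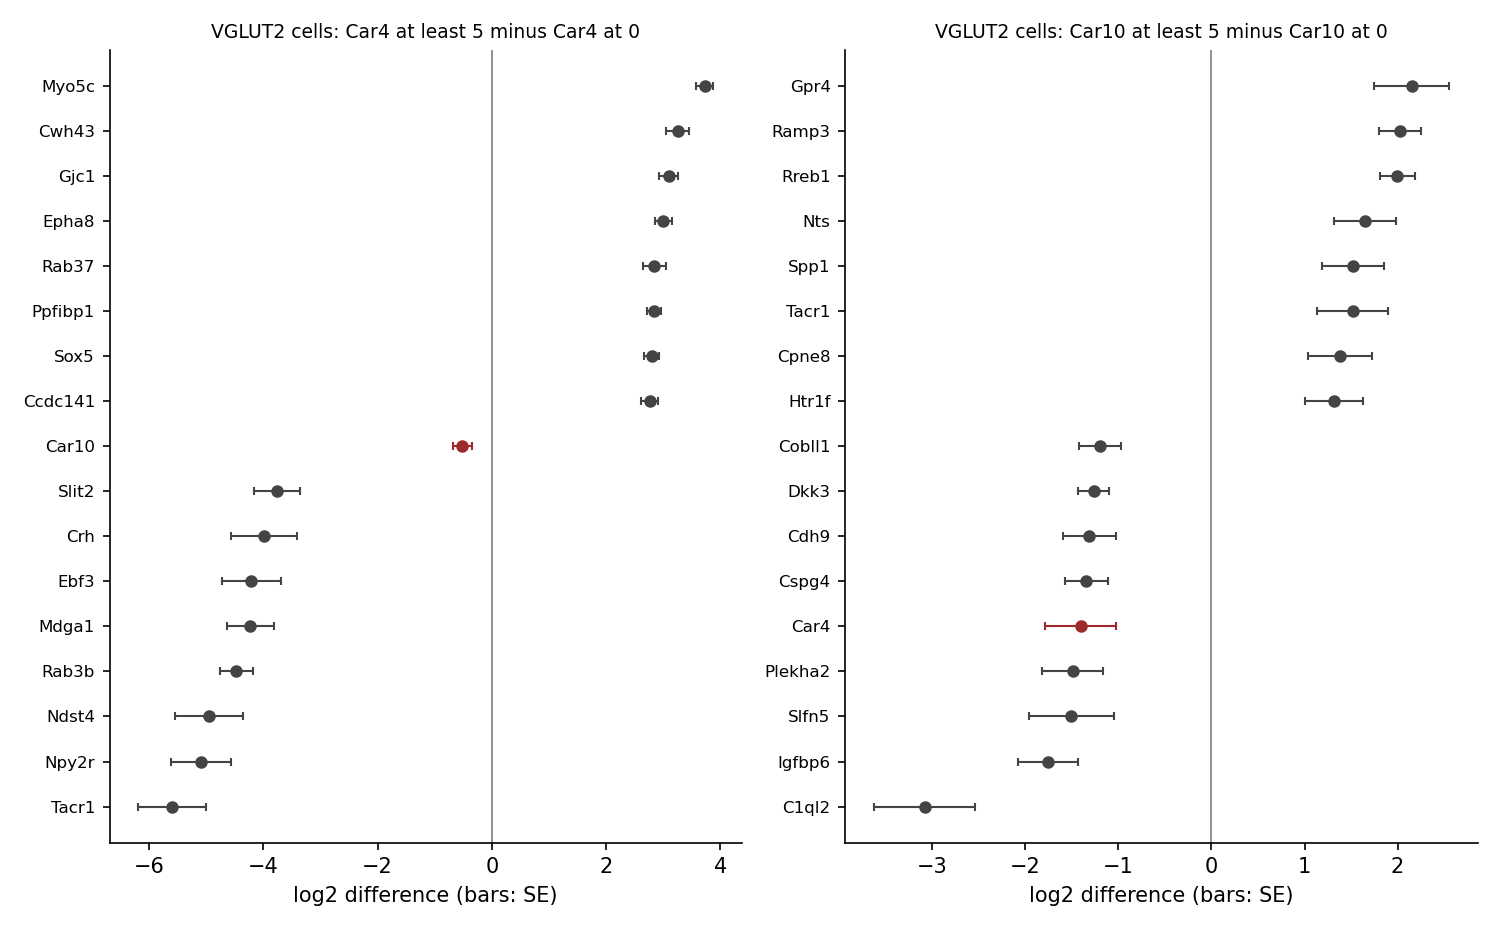
Log2 differences (points) with standard errors (bars) from edgeR for the 8 largest differences in each direction and for the other carbonic anhydrase gene (red), in VGLUT2 cells rich in Car4 against those without it (left) and rich in Car10 against those without it (right). Car10 lies at -0.52 on the left and Car4 at -1.41 on the right; values under -4 belong to genes near 0 in Car4-rich cells and depend on the model's prior count.

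The matching split by Car10 called fewer genes. VGLUT2 cells with at least 5 Car10 transcripts (1785 cells, median depth 464) and with none (711 cells, depth 277) differed in 74 of 280 genes (26.4%), 40 higher (14.3%) and 34 lower (12.1%). Rreb1, a zinc-finger gene, was 3.89 against 0.681 (log2 difference 1.997 ± 0.187, edgeR adjusted p = 6.08e-05), and Ramp3, a receptor-modifying protein, was 1.84 against 0.304. The proton-sensing receptor gene Gpr4 (0.505 against 0.0806), Nts (1.08 against 0.253), Spp1, Tacr1, Cpne8 and Htr1f were the other leading rises, at log2 differences of 2.15, 1.65, 1.52, 1.52, 1.38 and 1.32. Calb2 rose to 12.6 from 3.89 transcripts (log2 difference 1.25), opposite to its direction in the Car4 split. Lower genes were led by C1ql2, a synaptic organiser related to cerebellins (0.0857 against 0.538, log2 difference -3.08), with Dkk3 at 1.43 against 2.41 and Igfbp6, Slfn5, Plekha2, Cspg4, Cdh9 and Cobll1 between -1.76 and -1.20. Cspg4 lost its call with Cldn5-holding cells left out (-0.98) and with glial rules ignored (-0.22, added after the data were seen). Slfn5 lost its call without intermediate section 1 (-1.498), intermediate section 2 (-1.24) or posterior section 3 (-1.16). Of the neurexin list Cntnap4, Nxph3 and Cbln4 were higher and C1ql2 lower. Endothelial genes were lower in 8 of 14 tested (median log2 difference -0.93, against -0.06 over all genes).

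Mean Car4 was lower in these Car10-rich cells, 1.17 ± 0.59 against 2.20 ± 1.29. After scaling for depth it was lower in 6 of 7 sections, with a log2 difference of -1.41 ± 0.385 (SE), given without a test. Per cell, anterior section 1 and posterior section 3 went the other way. Cells without Car10 held 1.44 and 0.800 Car4 transcripts there. Those with 5 to 9 Car10 transcripts held 2.37 and 2.03, and those with 10 or more 0.607 and 1.96. The ranges overlapped (0.628 to 2.02 against 0.800 to 4.10). Leaving out a section in turn gave -1.72 to -1.18, and ignoring glial rules, chosen after the data were seen, gave -0.997.

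A direct contrast was made between VGLUT2 cells with Car4 of at least 5 and Car10 of at most 1 (221 cells) and those with the reverse (1536 cells), at depths of 427 and 462. Of 261 genes 70.9% differed, 72 higher in the Car4 cells (27.6%) and 113 lower (43.3%). Calb2 was 0.478 in Car4 cells and 14.4 in Car10 cells (log2 difference -5.46 ± 0.571, edgeR adjusted p = 8.45e-06), and Necab1 was 0.404 against 8.08. Tacr1 had no transcript in the 221 Car4 cells and 0.507 per Car10 cell, at least 37.4-fold lower against a floor of 3 counts over the group. Mdga1 (0.0107 against 1.30), Sema3a (0.024 against 0.948), Plcxd3 (0.222 against 3.52), Ndst4 and Npy2r were the other leading genes of the Car10 cells. On the Car4 side stood Myo5c (1.48 against 0.212), Gjc1 (2.88 against 0.571), Stard5 (1.89 against 0.406), Ppfibp1 (3.24 against 0.760), Rab37, Gbe1, Emcn and Cspg4. Prox1 was 17.4 against 6.14 and Rorb 11.4 against 3.14. The neurexin list divided evenly, with C1ql2, Cntn6 and Cbln1 on the Car4 side and Cbln4, Cntnap4 and Nxph3 on the Car10 side. Endothelial genes were higher in the Car4 cells for 9 of 13 tested, and their sum was 2.58 per cell against 1.23. The part of neighbouring vessels in the rise of Emcn and Cspg4 was not tested. Without the section block 50% of calls were higher, against 38.9% with it.

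In GAD cells, Car10 marked a population with other transcripts. The 1875 cells with at least 5 Car10 transcripts (depth 465) differed from the 16863 without it (depth 349) in 77.6% of 295 genes, 107 higher (36.3%) and 122 lower (41.4%). Ppp1r1b, which encodes DARPP-32 of striatal projection neurons, was 1.51 against 15.7 transcripts (log2 difference -4.11 ± 0.124, edgeR adjusted p = 1.66e-10), with no overlap between sections. Col6a1 was 0.301 against 1.76, Pdzd2 0.739 against 3.23 and Strip2 0.693 against 2.72, and Pln, Acvrl1, Gm19410 and Ror1 were also among the 8 largest falls. Calb2 was 5.91 against 0.608 (log2 difference 2.53 ± 0.148), Nrn1, an activity-linked neuritin, was 2.30 against 0.306, and Eya4, Slc17a6, Npnt and Cd44 rose by log2 differences of 2.58, 2.23, 2.19 and 2.07. Slc17a6 and Slc17a7, the markers of glutamatergic cells, moved together with Car10 here, at 0.783 against 0.105 and 0.830 against 0.215 transcripts per cell. The part of glutamatergic neighbours in these differences was not tested. Of the 6 neurexin-list genes 5 were higher in Car10-rich GAD cells: Cbln4 (1.66 against 0.224), Cbln1 (0.240 against 0.0321), Cntnap4 (2.53 against 0.456), Cntn6 (2.57 against 0.709) and Nxph3. Of 12 interneuron genes 7 were higher, with Vip at 0.654 against 0.104, and Lamp5 was lower. Car4 was higher too, 0.567 ± 0.123 against 0.206 ± 0.0167, in 7 of 7 sections (log2 difference 0.72 ± 0.128, without a test), while 14 of 16 endothelial genes were lower. With total counts in place of TMM the share of higher genes among the calls was 63.6%, against 46.7%, and the median of all genes moved by 0.32.

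In VGLUT1 cells, at least 5 Car10 transcripts (19212 cells, depth 509) against none (2629 cells, depth 241) differed in most genes. Of 296 genes 66.2% differed, 92 higher (31.1%) and 104 lower (35.1%). Rims3, a presynaptic active-zone gene, was 8.53 against 1.39 (log2 difference 2.18 ± 0.123, edgeR adjusted p = 2.97e-08), Lamp5 was 7.18 against 1.27, Rasgrf2 5.42 against 0.994 and Cux2 4.27 against 0.803. Cbln4 (1.37 against 0.129), Rspo1, Igfbp6 and Pde7b were also among the 8 largest rises. The largest falls included Ccn2, a marker of the deepest cortical layer, at 0.262 against 3.13 (log2 difference -3.99 ± 0.163), Cplx3 at 0.294 against 2.05, Nxph3 at 1.43 against 4.91 and Tmem163 at 0.376 against 1.30, besides Epha1, Ano1, C1ql2 and Pthlh. Of 13 layer genes 6 were higher and 5 lower. Of the 6 neurexin-list genes Cbln4 was higher and the other 5 were lower. Car4 was higher with Car10 here, 2.05 ± 0.181 against 0.708 ± 0.124 (log2 difference 1.07 ± 0.125, without a test), higher in 7 of 7 sections without overlap. All 16 endothelial genes were lower in the Car10-rich cells. Total counts in place of TMM left 27.5% of calls higher, against 46.9%, moved the median of all genes by -0.38 and turned 1 call.

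Among endothelial cells, 2721 with at least 3 Car4 transcripts (depth 184) were compared with 1521 at 0 (depth 114). Of 288 genes 26% differed, 30 higher (10.4%) and 45 lower (15.6%). Car4-rich cells had more Pglyrp1 (2.54 against 1.04, log2 difference 0.78 ± 0.0679, edgeR adjusted p = 1.48e-08) and more Kdr, the VEGF receptor gene (3.97 against 1.99, log2 difference 0.48 ± 0.0535). Gjc1 was 0.947 against 0.390, and Cspg4, Sntb1, Carmn, Ramp3, Ano1 and Trpc4 rose by log2 differences of 1.84, 1.26, 0.88, 0.88, 0.87 and 0.87. Of 6 measured genes on a list written for arterioles, Carmn and Ano1 were higher and 4 lower. Carmn and Ano1 were also higher in the Car4-rich mural cells low in Acta2 that are described below. Without cells holding Slc17a6, Slc17a7, Gad1 or Gad2, Ano1 had a log2 difference of 0.23 and lost its call. Mecom was 0.885 against 1.26 transcripts (log2 difference -0.996 ± 0.0816, edgeR adjusted p = 7.03e-09), and Sox17 was 1.34 against 1.38, which is -0.54 ± 0.0753 after scaling for depth. The others of the 4 were the muscle genes Acta2 (0.0459 against 0.281, log2 difference -3.12) and Pln. All 6 fibroblast genes fell, with Dcn at 0.164 against 0.352. Cyp1b1, Fmod, Col1a1, Gjb2 and Aldh1a2 made up the rest of the largest falls. Endothelial markers themselves were divided, 6 higher and 7 lower of 16, and with glial rules ignored (added after the data were seen) 9 were higher and 2 lower. Car10 was 0.699 ± 0.0751 against 0.440 ± 0.0777, a log2 difference of 0.13 ± 0.10, without a test.

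Car4 in the mural class was concentrated in cells low in Acta2. The class rule rests on Acta2, Carmn and Pln, genes of muscle cells and pericytes, and this comparison was chosen after its values were seen and is given without a test. The 242 mural cells with at least 5 Carmn and under 5 Acta2 transcripts held 5.77 ± 0.601 Car4 (4.75 to 6.47), above the endothelial level in every section. The 329 with the reverse held 0.676 ± 0.241 (0.457 to 1.15). The 191 mural cells with at least 5 Car4 transcripts (depth 185) had Acta2 at 2.32 and Pln, a regulator of the muscle calcium pump, at 0.117, against 10.3 and 3.66 in the 438 mural cells at 0 (depth 91). Their Carmn was 5.62 against 2.75, Ano1 3.37 against 0.825, Cspg4 (the NG2 proteoglycan of pericytes) 4.90 against 1.65 and Gjc1 3.68 against 0.951. Cldn5 in these Car4-rich mural cells was 0.780, against 0.606 in those at 0. The distance to the 8.46 of endothelium was set by the class rules, which kept Cldn5 under 3 in mural cells. Other endothelial genes were mixed, at these unequal depths. Emcn was 1.42 against 0.213, Kdr 0.688 against 0.228, Adgrl4 1.18 against 0.609 and Cobll1 3.62 against 1.43. Pecam1 was 1.04 against 1.25 and Sox17 0.123 against 0.303. The part of neighbouring endothelium in these cells was not tested.

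**Figure D5:**
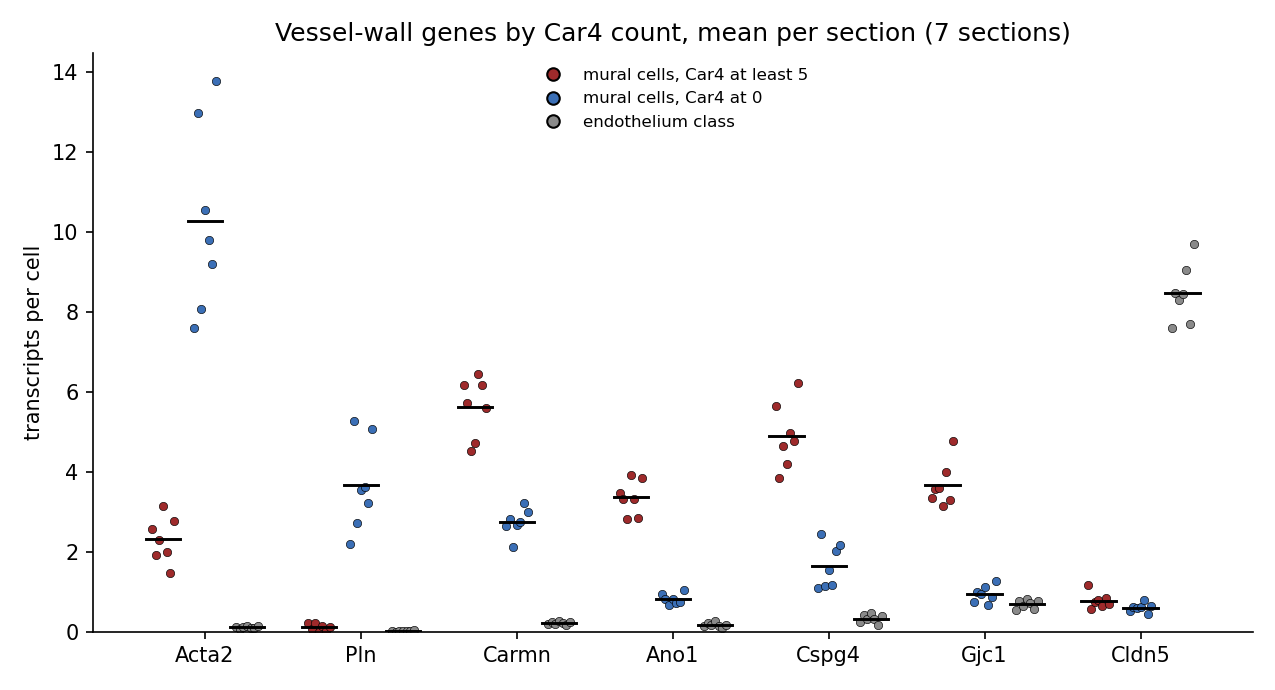
Transcripts per cell of 7 vessel-wall genes in mural cells with at least 5 Car4 transcripts (red), in mural cells with none (blue) and in the endothelial class (grey); points are the 7 sections and bars their means. Mural cells rich in Car4 have low Acta2 (2.32) and high Carmn (5.62) and Cspg4 (4.90), with Cldn5 at 0.780 against 8.46 in endothelium.

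Over the 10 classes (log2 of the mean plus 0.1) the profile most like Car4 was that of Gjc1, with Pearson's r of 0.758, then Nostrin at 0.679, Cldn5 at 0.672, Sox17 at 0.671 and Gpr4 at 0.641. Gjc1 was also the gene most correlated with Car4 across VGLUT2 cells (0.508, followed by Epha8 at 0.501, Myo5c at 0.490, Prox1 at 0.464 and Ppfibp1 at 0.462) and ranked 5th across mural cells (0.411) and 7th across endothelial cells (0.155). Across VGLUT1 cells it was 62nd (0.101), where Bhlhe22 led at 0.413. The profile of Car10 was most like those of Cux2 (0.973), Rxfp1 (0.961), Nwd2 (0.961), Fhod3 (0.960) and Cpne4 (0.952). The profiles of Car4 and Car10 correlated at 0.355. Classes of one section share a library, and all these correlations are descriptions. The Cldn5 profile was in part set by the class rules, which kept Cldn5 under 3 outside endothelium.

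Position along the brain axis was not used to choose the genes and was tested with edgeR on sums per section. Posterior sections 3 and 4 lay on a slide of their own and the other 5 sections shared another, so position and slide overlap in part. In VGLUT2 cells Car4 was 1.87 and 0.919 in the anterior, 1.69 and 1.14 in the intermediate and 1.79, 1.52 and 1.71 in the posterior sections, so the anterior sections alone spanned all others. Posterior minus anterior was 0.15 ± 0.377 on the log2 scale (SE, edgeR adjusted p = 0.986), and leaving out a section in turn moved it from -0.41 to 0.88. With slide as a term it was 0.15 ± 0.54, and Car10 -0.28 ± 0.279. Car10 in VGLUT2 cells differed by -0.23 ± 0.177 (adjusted p = 0.98 by edgeR). In VGLUT1 cells the differences were 0.07 ± 0.0828 for Car4 and -0.13 ± 0.0594 for Car10, in GAD cells 0.07 ± 0.189 and 0.14 ± 0.135, and in endothelium -0.0037 ± 0.0931 and -0.06 ± 0.16. No difference of either gene passed in these classes or in glia. Over all genes edgeR called 0 of 293 in VGLUT2 cells (11 at an unadjusted p under 0.05), 0 of 297 in VGLUT1 (39), 0 of 297 in GAD (31) and 0 of 297 in glia (19), while DESeq2 called 0, 7, 4 and 0. In endothelium edgeR called 1 of 294 (0.34%), Ppp1r1b, and DESeq2 called 1. The Car4 position effect in VGLUT2 cells differed from that in VGLUT1, GAD and endothelial cells by 0.18 ± 0.418, 0.23 ± 0.284 and 0.25 ± 0.358 (edgeR interaction terms, 0 genes called in each, 14, 13 and 14 at an unadjusted p under 0.05). With standard errors of this size in VGLUT2 cells, a change of Car4 within its section spread was not detectable.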

How the data were processed

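Xenium transcript counts of 297 genes were used as the authors' deposited table of whole-number counts per gene and segmented cell. The submitters' processing notes name Seurat. How cells were segmented and filtered and transcripts decoded, and the genome build, was not given in the sources used here. Each cell's section came from the deposited cell table, and each section's position and replicate number from the labels. The members, classes and gene lists were chosen with earlier results of these data known.

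Class levels used cells meeting exactly 1 of 10 rules. No doublet caller was run, since segmented cells are not droplets. Sums per section were tested in edgeR 4.0.16, with limma 3.58.1 under R 4.3.3: filterByExpr, TMM, quasi-likelihood F test, Benjamini-Hochberg adjustment at 0.05 over all genes tested. Comparisons of cells within a class had the section as a block and left out the gene that chose the cells; position had no block. The SE is the log2 difference divided by the root of F. Scripts were tested on simulated data. Named genes were, among calls of 1 sign in every section, the 8 largest differences in each direction, plus up to 4 of each gene list by adjusted p. Mural kinds and Gjc1 ranks were added after their values were seen. Alternatives were DESeq2 1.42.0, total counts, no low-count filter, other thresholds and depths, a replicate block, a slide term, no section block, and leaving out each section. Sequences of the proteins were not used here. Tables were made with pandas 2.3.3 and numpy 2.4.6 under Python 3.11.15, and plots with matplotlib 3.10.9.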

Additional observations from a re-analysis of the deposited data

Results flagged for a closer look

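Car4 in VGLUT2 cells with at least 5 Htr2c transcripts was 2.27 per cell in intermediate section 2, apart from the other 6 sections, which lay between 0.0417 and 0.407. Car10 in the same cells of that section was 7.07, the highest of the 7 sections. The gap was larger than Dixon's 95% criterion allows. It was the single such case among 64 series of sections examined, where chance alone flags about 1 in 20.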

How the results depend on the processing

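Of the class ratios given here in log2 form, 1 changed direction: Car4 in endothelium over mural cells, 0.36, which was 1.30 with doubled marker thresholds and -0.044 after thinning. Over every cell meeting a rule, log2 ratios were 1.05 (Car4, VGLUT2 over GAD), 0.94 (Car4, VGLUT1 over GAD), 1.63 (Car4, endothelium over glia), 0.0074 (Car10, VGLUT1 over VGLUT2), 1.04 (Car10, VGLUT2 over GAD), 1.65 (Car10, VGLUT2 over endothelium) and 0.0090 (Car10, GAD over glia). Per 1000 transcripts and after thinning, in that order, they were 2.40 and 2.44 (Car4, endothelium over VGLUT2), 1.85 and 1.94 (Car4, VGLUT2 over GAD), 1.84 and 1.95 (Car4, VGLUT1 over GAD), 0.37 and 0.38 (Car10, VGLUT1 over VGLUT2), 1.53 and 1.49 (Car10, VGLUT2 over endothelium) and 0.34 and 0.21 (Car10, GAD over glia). Doubled thresholds gave 3.54 (Car4, endothelium over glia), 2.31 (Car10, VGLUT2 over endothelium) and 0.85 (Car10, GAD over glia). With glial rules ignored, a setting chosen after seeing the data, Car4 in VGLUT2 over GAD cells was 2.83. Closer pairs also changed order: Car10 in GAD cells was 0.315 and in endothelium 0.373 after thinning, and over every cell meeting a rule Car4 in GAD cells fell below glia and in VGLUT1 below VGLUT2 cells.

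Of values of the named genes 1427 of 1433 kept direction and call, 6 lost the call and 0 changed sign. These genes were picked as large differences of 1 sign in every section, so the count does not show how other calls held. In the Car4 split of VGLUT2 cells, Car10 ran from -0.96 to -0.31 over 8 other settings. It was -0.31 without the section block and -0.45 with glial rules ignored. That last setting called 172 genes in the Car10 split of VGLUT2 cells, with Car4 at -0.997, and 140 in the endothelial split, with Car10 at 0.29. Leaving out a section moved Car4 in the Car10 split from -1.72 to -1.18 and Slfn5 from -1.73 to -1.16.

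The position effect of Car10 kept its sign under 9 of 9 other settings in VGLUT2 (-0.40 to -0.15) and in VGLUT1 cells (-0.18 to -0.088). Other position effects changed sign. For Car4 in VGLUT2 cells the log2 difference was -0.12 over every cell meeting the rule, -0.15 with the doubled threshold and -0.30 with glial rules ignored. In VGLUT1 cells Car4 was -0.018 over every such cell and -0.013 with a slide term. In endothelium Car4 was 0.012 with total counts, 0.00068 without the filter, 0.11 with a slide term and 0.012 with the doubled threshold, where Car10 was 0.046. GAD Car10 was -0.052 with a slide term. Glial Car4 was -0.0059 with DESeq2 and -0.035 with total counts, and glial Car10 -0.024 with total counts, -0.041 with a slide term, -0.061 over every such cell and -0.0034 with doubled thresholds. Genes called were 7 (VGLUT1) and 4 (GAD) by DESeq2, 2 (VGLUT1) with a slide term, 3 (GAD) over every such cell, and 0 in endothelium with total counts, a slide term, every such cell or the doubled threshold.

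Without 1 section in turn, Car4 ranged from -0.41 to 0.88 in VGLUT2, -0.15 to 0.31 in GAD, -0.056 to 0.054 in endothelial and -0.11 to 0.13 in glial cells, and Car10 from -0.017 to 0.22 in GAD, -0.20 to 0.10 in endothelial and -0.024 to 0.061 in glial cells. Genes called ran from 0 to 1 in VGLUT2, 0 to 8 in VGLUT1 and 0 to 1 in endothelial cells. Interaction terms for Car4 ran from -0.48 to 0.83 (VGLUT1), -0.18 to 0.64 (GAD) and -0.46 to 0.90 (endothelium), and for Car10 from -0.17 to 0.0093 (VGLUT1). The cause of these moves was not tested.

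Anterior and intermediate sections share replicate numbers 1 and 2, and 1 posterior section also has number 1, but nothing in the labels says that a number marks an animal. Deviations of same-numbered sections from their group means correlated at 0.714 in VGLUT2, 0.779 in VGLUT1, 0.757 in GAD, 0.419 in endothelial and 0.782 in glial cells, over 297 genes. With a replicate block the position test called 31 genes in VGLUT2, 59 in VGLUT1, 21 in GAD and 19 in endothelial cells, while Car4 was -0.21, -0.042, -0.20 and 0.10 in these classes and GAD Car10 -0.033. Of the 5 classes tested for position, VGLUT2 had the fewest cells in a section (423 to 1080 per section).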
